A study of Mus musculus with 16 samples.

Results

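The open chromatin regions described here are those at Prkch and Inpp4b, a pair of genes that act on membrane lipid signalling in T cells. They were chosen by position on the mouse genome build mm9, as every listed region that overlapped chromosome 12 from 74600000 to 74920000 (the Prkch window, 320 kb) or chromosome 8 from 83850000 to 84680000 (the Inpp4b window, 830 kb). This gave 74 regions at Prkch and 108 at Inpp4b, 182 in all, or 0.241% of the 75363 regions of the series. The windows were set with the crowding of regions at both genes already known. The number, density, spacing and clustering of regions are therefore given as a description, with no test.

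Protein kinase C eta, the product of Prkch, is a serine/threonine kinase that is switched on by the membrane lipid diacylglycerol when the T cell receptor is engaged. In regulatory T cells (Treg cells, CD4+ T cells that restrain other immune cells) it is known to associate with the inhibitory receptor CTLA-4 at the contact with other cells. Inpp4b encodes an inositol polyphosphate phosphatase, which removes a phosphate from lipids made during PI3 kinase signalling and so restrains the kinase Akt. Distal accessible sites within and around a gene are where transcription factors commonly bind, while the promoter is the site where transcription starts.

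The assay was ATAC-seq: a transposase inserts sequencing adapters where DNA is not wrapped in nucleosomes, and those places are read out. The 16 samples were CD4+CD25+ Treg cells of 8 C57BL/6 mice, in 8 groups of 2, from VAT (visceral fat around the epididymis), hindlimb skeletal muscle after injury, colonic lamina propria (as Nrp1p and Nrp1n groups), and the spleen of each of these mice (Spl_wVAT, Spl_wMus, Spl_wCol_Nrp1p and Spl_wCol_Nrp1n). No genetic alteration or drug is named in the labels, and the agent of muscle injury, the ages and the sexes are not given there. The deposited file is 1 list for the whole series with a chromosome, start and end per region, so the values below describe all groups together. Openness limited to 1 tissue and openness in every tissue cannot be told apart, no region has a replicate error, read depth is unknown, and the sorted cell type was taken from the labels because the list holds no expression.

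For position along each gene, approximate gene spans were used: 74.69 to 74.88 Mb for Prkch and 83.87 to 84.65 Mb for Inpp4b. These are rounded to 10 kb and were not set against an mm9 annotation, which was not used here. Exons, introns and start sites were therefore not assigned, and "start" and "end" below mean the ends of these spans. Both genes are transcribed toward higher coordinates, so the start of the span is the 5′ end of the gene.

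The regulatory sequence that could be printed is the 5′ flank of Inpp4b, shown because the first regions of that gene lie close to the start of its span. These are the 250 bases before a RefSeq transcription start, from chr8:81342312-81342561 of GRCm38.p6, plus strand, 5′ to 3′, with CpG dinucleotides in capitals. GRCm38.p6 is another build than that of the regions, so whether a region covers these bases was not determined.
Inpp4b: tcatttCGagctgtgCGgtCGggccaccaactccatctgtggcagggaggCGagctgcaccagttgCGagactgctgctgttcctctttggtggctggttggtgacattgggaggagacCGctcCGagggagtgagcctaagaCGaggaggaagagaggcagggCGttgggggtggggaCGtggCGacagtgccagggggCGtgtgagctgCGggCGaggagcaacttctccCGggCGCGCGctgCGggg
This stretch held 19 CpG dinucleotides and 66% G or C bases, against medians of 6 and 52.4% over 32851 mouse promoter entries of the same table and length. Its ratio of observed to expected CpG was 0.765, against a median of 0.373. None of 5 short motifs, searched on both strands, was present in these 250 bases. The GC box GGGCGG occurred in 32.7% of all entries, the ETS-type motif CCGGAA in 12.0%, the AP-1-type motif TGANTCA in 6.75%, the E-box CACGTG in 6.02% and the TATA-type motif TATAAA in 12.4%.

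Accessible regions were several times denser at both genes than over the list as a whole, and denser at Prkch than at Inpp4b. Prkch had 23.1 regions per 100 kb of window and Inpp4b 13.0, against 2.86 over all chromosomes. The ratio of Prkch to Inpp4b was 1.78. Regions covered 4.97% of the Prkch window and 2.60% of the Inpp4b window, against 0.576% of the genome up to the last region of each chromosome. Inpp4b thus had more regions in total and Prkch more for its length, and the ratio was 2.07 over the gene spans alone, with 27.9 and 13.5 regions per 100 kb.

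The surroundings of both windows had fewer regions over the same length. Stretches of 320 kb just before and just after the Prkch window held 14 and 27 regions, against 74 within it. Of the 27, 20 lay together at 74943264 to 75027754, so crowding resumed beyond Prkch. From first to last region these stood at 23.7 per 100 kb, against 26.15 for the regions of the Prkch window measured likewise. Stretches of 830 kb before and after the Inpp4b window held 14 and 8, against 108 within it. In the gene order of the RefSeq table, the next non-overlapping protein-coding genes are Tmem30b before Prkch and Hif1a, a hypoxia-responsive transcription factor, after it. The corresponding neighbours of Inpp4b are Usp38, a deubiquitinase, and Il15, a cytokine gene.

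At the window edges, the nearest region left out before Prkch lay 4.71 kb outside (74595020 to 74595294), and the first region inside began at 74635675, after a gap of 40.4 kb. The last region inside was 74918508 to 74918657, and the next one lay 23.3 kb beyond the window. At Inpp4b the nearest region left out before the window lay 39.1 kb away, and the first inside began at 83865503, after a gap of 54.7 kb. The last region of Inpp4b ended at 84580078 and was followed by 295 kb without any region, of which 195 kb lay beyond the window. The gap before the first region was thus 40.4 kb at Prkch and 54.7 kb at Inpp4b. The larger contrast lay after the last region, with gaps of 24.6 kb at Prkch and 295 kb at Inpp4b.

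When the list was cut into consecutive windows of the same length from the start of each chromosome, 1 of 8246 windows of 320 kb held 74 regions or more. The median such window held 3, and 39.4% held none. For 830 kb, 23 of 3184 windows (0.722%) held 108 regions or more, with a median of 14 and a maximum of 135. Prkch therefore lay at the extreme end for its length and Inpp4b near it. Because the windows were drawn around known clusters and the consecutive windows were not, these ranks describe how the list is laid out and are no test. Consecutive windows over the genes themselves were not left out of the counts. The 23 windows of 830 kb thus include 1 that holds all 108 regions of Inpp4b. Whether the 1 window of 320 kb with 74 regions or more lay over Prkch was not determined.

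**Figure D1:**
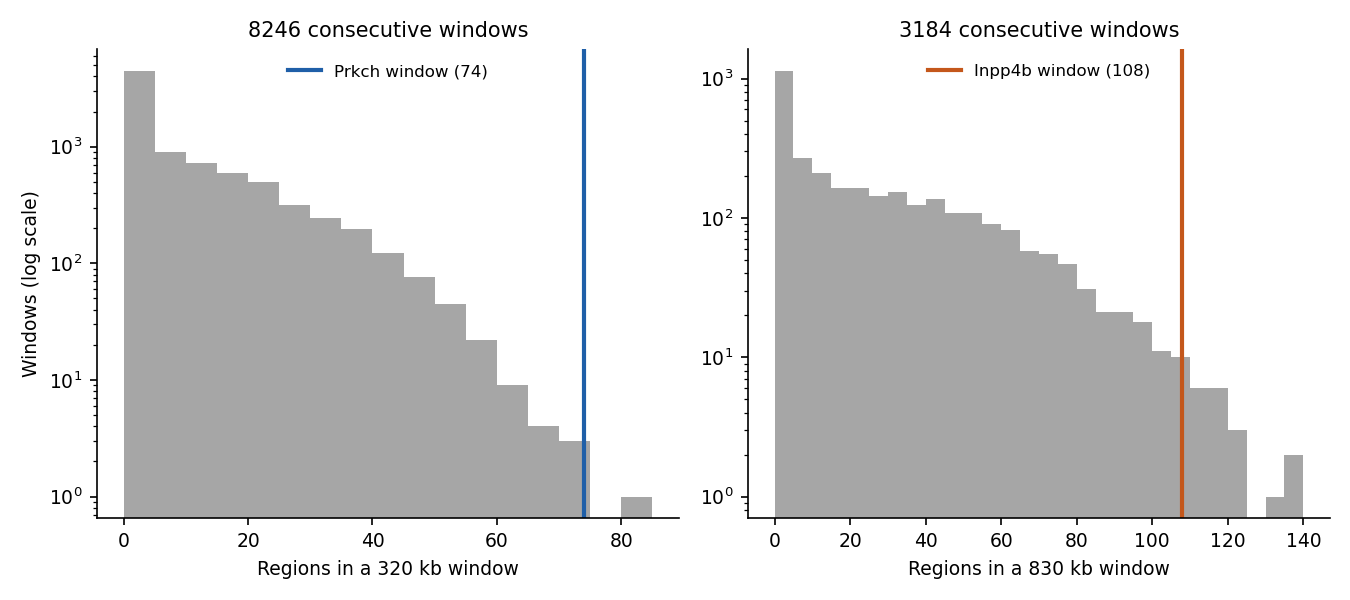
Number of consecutive windows (vertical axis, log scale) by the number of open chromatin regions in each (horizontal axis, bins of 5), for windows of 320 kb (left) and 830 kb (right) over chromosomes 1 to 19 and X. Coloured lines mark the Prkch window with 74 regions and the Inpp4b window with 108, both in the thin right tail.

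Along Prkch the regions began upstream of the gene and ran through its 5′ part and middle. Of the 74 regions, 16 lay before the start of the span, 53 within it and 5 after its end. Cut into 10 equal parts of 19 kb, the span held 8, 8, 7, 7, 4, 7, 6, 2, 3 and 1 regions from 5′ to 3′. The first 7 parts had 47 of the 53 regions (88.7%), at 35.3 per 100 kb, and the last 3 had 6, at 10.5 per 100 kb. The middle region by rank lay 67.6 kb into the span, at 35.6% of its length. The density was thus nearly level over the first 4 parts, where 30 regions stood at 39.5 per 100 kb, and was lower toward the 3′ end.

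Along Inpp4b the distribution had the reverse form in the 5′ part of its span, with few regions in the first of 10 equal parts and most in the middle. Of its 108 regions, 3 lay before the start of the span, 105 within it and 0 after its end. The window reached only 20 kb before this span, against 90 kb before that of Prkch. Per 100 kb, the parts before the spans held 15.0 regions at Inpp4b and 17.8 at Prkch. The 10 equal parts of 78 kb held 2, 10, 15, 13, 10, 32, 16, 1, 5 and 1 regions from 5′ to 3′. The sixth part alone had 29.6% of the regions in the window, at 41.0 per 100 kb, and the sixth and seventh parts together had 48. The middle region by rank lay 397 kb into the span, at 50.9% of its length. At both genes the last 3 parts were sparse, with 6 of 53 regions in the span at Prkch (11.3%) and 7 of 105 at Inpp4b (6.67%).

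**Figure D2:**
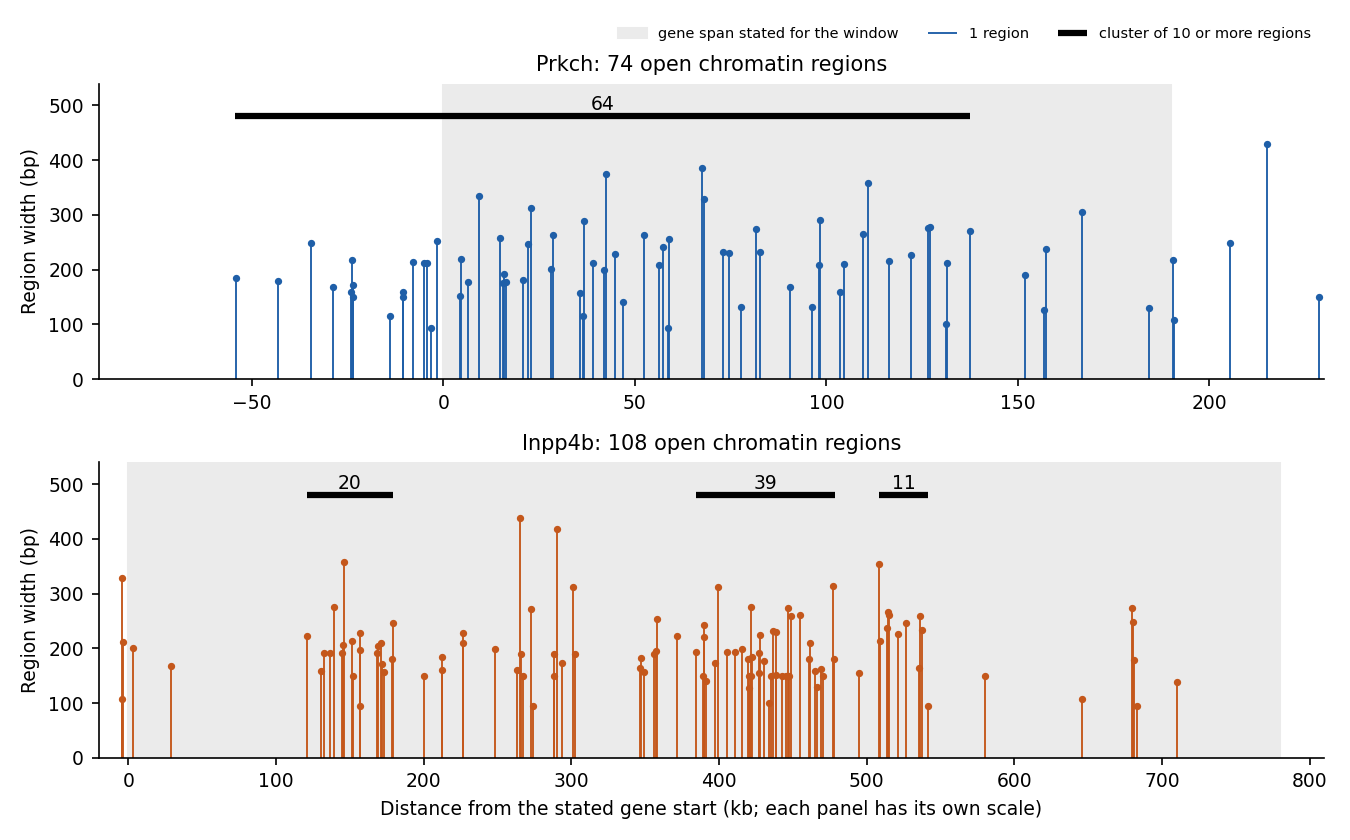
Each vertical line is 1 open chromatin region, placed by its distance from the start of the gene span in kb (horizontal axis, its own scale in each panel) with its width in bp as height (vertical axis). Grey marks the gene span and black bars the clusters of 10 or more regions, 1 of 64 regions at Prkch and 3 of 20, 39 and 11 regions at Inpp4b.

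**Figure D3:**
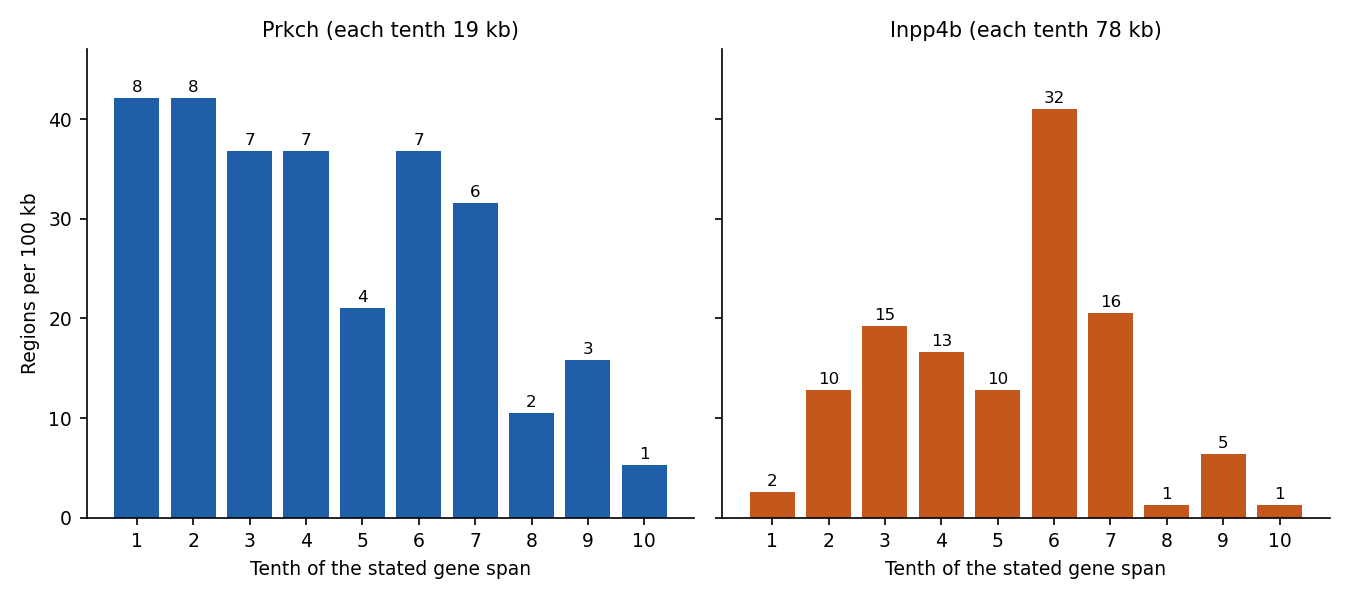
Regions per 100 kb (vertical axis) in each of 10 equal parts of the gene span from the 5′ end (horizontal axis), with the number of regions above each bar, for Prkch (left) and Inpp4b (right). Prkch is highest in its first parts with 8 regions each, and Inpp4b in its sixth part with 32.

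The 5′ ends themselves differed in density in the same order as the whole spans. The 20 kb around the span start stood at 45 regions per 100 kb at Prkch and 20 at Inpp4b. The whole spans stood at 27.9 and 13.5, so each 5′ end was denser than its own span. Within 10 kb on both sides of the span start, Prkch had 9 regions and Inpp4b had 4. Those of Inpp4b included a close group of 3 regions at 83865503 to 83866439, centred 4.03 kb before the rounded start, with widths of 328, 108 and 211 bp and gaps of 123 and 167 bp. After it came 1 region at 3.52 kb, as the plot by distance shows, and a lone region at 29.1 kb into the span. Then followed 91.5 kb without any region (83899292 to 83990756), the longest gap between neighbours in either window. At Prkch the longest gap was 17.1 kb (74856929 to 74874038), and it lay near the 3′ end, from 87.9% to 96.9% of the span.

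When neighbours under 12500 bp apart were linked, Prkch had 5 groups. Most of its regions fell into 1 large cluster, while those of Inpp4b were spread over several. The Prkch cluster held 64 of its 74 regions (86.5%), and it began 54.3 kb before the span and ended 137 kb into it, at 72.4% of the span. Inpp4b had 17 groups, of which 7 were single regions and 3 had 10 regions or more. Together those 3 clusters held 70 of its 108 regions (64.8%), against 24.2% of regions in such clusters over the whole list. The windows were set around known clusters, so a share above that of the list comes from the choice and is no test.

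The 3 large Inpp4b clusters lay apart from the 5′ end. The first, of 20 regions over 58.8 kb (83990757 to 84049555), began 121 kb into the span. The second, of 39 regions over 94.1 kb (84254233 to 84348327), lay at 49.3% to 61.3% of the span. The third, of 11 regions over 33.2 kb (84378480 to 84411679), ended at 69.4%. Between the first and the second were single regions and smaller groups, among them 3 of 6 regions each, at 84132964 to 84144308, 84158060 to 84172540 and 84216193 to 84228211, so the middle of the gene was broken by shorter gaps, the longest of them 43.7 kb. A further group of 4 regions lay at 84549874 to 84553104, at 87.2% to 87.6% of the span, between longer empty stretches.

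The clusters differed in how tightly they were packed. The 39-region Inpp4b cluster had 4.14 regions per 10 kb and the Prkch cluster 3.34, a Prkch to Inpp4b ratio of 0.805, against a median of 3.17 over all 1193 clusters of 10 or more regions. Of those 1193 clusters, 489 (41.0%) were denser than the Prkch cluster and 168 (14.1%) denser than the 39-region one. The other Inpp4b clusters, of 20 and 11 regions, had 3.40 and 3.31 regions per 10 kb. The Prkch cluster was thus long rather than tight, as its packing was near the median of such clusters while its number of regions was second on the list.

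The order of the genes by peak density depended on the length considered. In the densest 10 kb there were 7 regions at Prkch and 9 at Inpp4b, in the densest 25 kb 13 and 16, and in the densest 50 kb 24 and 26. In the densest 100 kb there were 42 at Prkch and 39 at Inpp4b, and in the densest 190 kb 64 and 56. Inpp4b was thus ahead by 2 or 3 regions in stretches up to 50 kb, and Prkch was ahead in stretches of 100 kb and 190 kb. Part of these counts came from 12 exact widths, between 94 and 150 bp, that are unusually frequent in the list. They made up 30.8% of regions in the largest Inpp4b cluster and 15.6% in that of Prkch. With them set aside, the same stretches of 25 kb and 50 kb held fewer regions at Inpp4b than at Prkch. At 10 kb Inpp4b stayed ahead. The densest 10 kb of Prkch was 74679278 to 74689277, which ended 0.723 kb before the span start, and that of Inpp4b was 84289336 to 84299335, 419 kb into the span.

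**Figure D4:**
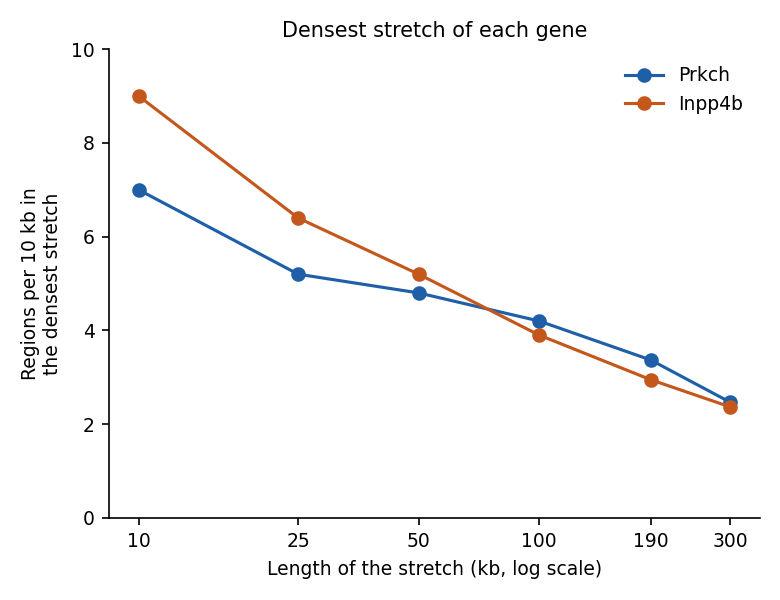
Regions per 10 kb (vertical axis) in the densest stretch of each gene, by the length of the stretch in kb (horizontal axis, log scale). Inpp4b is above Prkch at 10 kb (9 and 7 regions) and Prkch is above Inpp4b at 100 kb (42 and 39).

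With the stretch scaled to the gene, the densest 38 kb of Prkch (74676124 to 74714123) held 19 of 74 regions, or 25.7%. Both lengths are 1 part in 5 of the gene span. The densest 156 kb of Inpp4b (84254233 to 84410232) held 50 of 108, or 46.3%. Inpp4b thus had the larger share of its window's regions in such a stretch. The shares are of all regions in a window, and the span filled 190 of 320 kb at Prkch and 780 of 830 kb at Inpp4b. The stretch was therefore a smaller part of the window at Prkch, so the shares are not on an equal footing. At links under 5 kb, the Prkch regions fell into 23 groups of at most 9 regions. At Inpp4b a group of 22 regions over 38.0 kb (84280658 to 84318627) stayed linked. It lay inside the 39-region cluster, where the frequent widths made up 30.8% of regions.

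Neighbouring regions were closer at both genes than over the list, which restates the crowding known when the windows were set. At the genes only gaps inside a window were counted. The gaps at the edges (40.4 and 24.6 kb at Prkch, 54.7 and 295 kb at Inpp4b) are left out, while the list includes such stretches. The median gap was 2564 bp at Prkch and 1780 bp at Inpp4b, against 5200.5 bp over chromosomes 1 to 19 and X. The 95% intervals of the medians, 1123 to 4364 bp at Prkch and 1325 to 3661 bp at Inpp4b, overlap and treat regions as independent. Without regions of 12 exact, unusually frequent widths between 94 and 150 bp, the median gaps were 3242 bp at Prkch and 3245 bp at Inpp4b. The difference between the genes was not tested. Gaps under 12500 bp made up 69 of 73 at Prkch (94.5%) and 91 of 107 at Inpp4b (85.0%), against 68.1% over the list. The upper part of the distribution separated the genes, because the longest gap was 17.1 kb at Prkch and 91.5 kb at Inpp4b. The short end was near that of the list, with gaps under 500 bp in 24.7% of pairs at Prkch, 24.3% at Inpp4b and 22.2% overall.

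**Figure D5:**
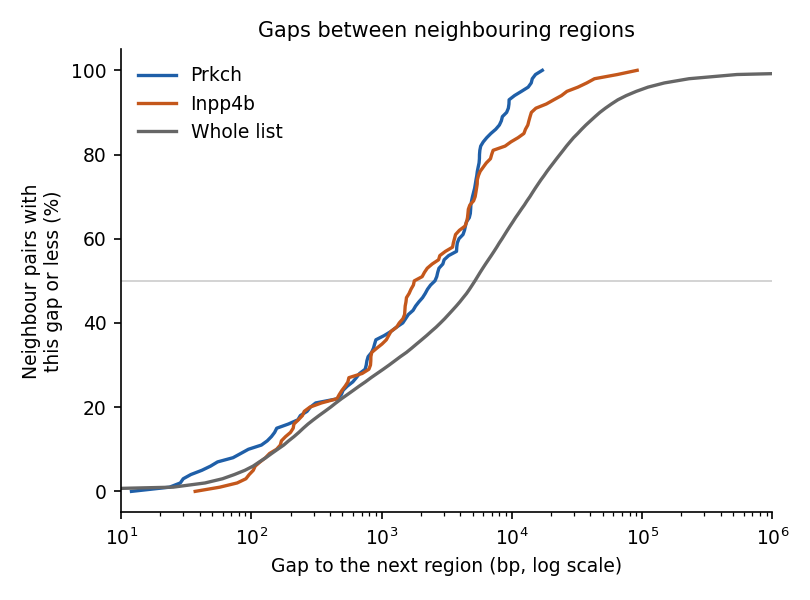
Percentage of neighbour pairs (vertical axis) with a gap of the given length or less (horizontal axis, bp, log scale) at Prkch, at Inpp4b and over the whole list. At the genes only gaps inside the window are counted. The medians are 2564, 1780 and 5200.5 bp; the Prkch line ends first, at 17.1 kb, and the Inpp4b line at 91.5 kb.

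Regions under 500 bp apart can be parts of 1 open site, such as both sides of a positioned nucleosome, so they were also counted jointly. The 74 Prkch regions made 56 such sites and the 108 Inpp4b regions made 82. At Prkch 14 sites held more than 1 region (25%), of which 12 were pairs and 2 were groups of 4. At Inpp4b 19 sites did (23.2%), of which 12 were pairs and 7 were groups of 3. The share over the list was 21.3%, so joint sites were about as frequent at both genes as elsewhere.

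The closest neighbours of all at Prkch were a pair inside the span, at 74757392 to 74758118, with a gap of 12 bp. Of the joint sites with more than 2 regions, the one with the shortest gaps was upstream of Prkch. At 74665796 to 74666611, centred 23.8 kb before the span, 4 regions of 159, 217, 150 and 172 bp were separated by gaps of 29, 35 and 54 bp. The other group of 4 at Prkch, at 74704735 to 74706429, was centred 15.6 kb into the span and looser, with gaps of 490, 122 and 281 bp. At Inpp4b, 4 of the 7 groups of 3 fell in the 39-region cluster, at 84259021 to 84260333, 84289336 to 84290351, 84291481 to 84292454 and 84296908 to 84297756. The last 3 of these lay within the densest 10 kb of the gene.

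Once joined into sites, the spacing at the genes was alike at its centre and unlike at its extremes. The median distance between neighbouring sites was 4364 bp at Prkch and 4044 bp at Inpp4b, against 8838 bp over the list. Distances over 20 kb were 0 of 55 at Prkch and 9 of 81 at Inpp4b (11.1%), against 29.1% over the list. Prkch thus had no long empty stretch between its sites, although they thinned toward the 3′ end, while Inpp4b had several. These distances lie inside the windows and leave out the gaps at the window edges, whereas the distances over the list include such stretches.

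Region width, which the choice of windows did not use, was slightly greater at Prkch. The median width was 212 bp at Prkch (interquartile range 162 to 255.25 bp) and 191.5 bp at Inpp4b (156.5 to 229.25 bp), against 191 bp over the list (165 to 227 bp). The 95% intervals of the medians from binomial ranks, 191 to 229 bp at Prkch and 180 to 199 bp at Inpp4b, overlap, and they treat neighbouring regions as independent, which they are not. A width of 300 bp or more was found for 8 regions at Prkch (10.8%) and 8 at Inpp4b (7.41%), against 6.32% over the list. The difference in width was not tested, since regions are no replicates of a gene.

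The widest Prkch region, of 430 bp (74904881 to 74905310), lay beyond the 3′ end, at 215 kb from the span start. The next were 385 bp (74757392 to 74757776) and 375 bp (74732170 to 74732544), both inside the 64-region cluster. The 16 regions upstream of the Prkch span had a median width of 176 bp and a range of 94 to 253 bp. The 48 regions of the same cluster inside the span had a median of 223.5 bp and a range of 94 to 385 bp. The ranges overlapped over most of their length, and the difference in medians was not tested.

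The widest Inpp4b regions stood outside its 39-region cluster. They measured 438 bp (84135165 to 84135602) and 418 bp (84160216 to 84160633), each in a group of 6 regions, and 358 bp (84015740 to 84016097), in the 20-region cluster. Of the 8 Inpp4b regions of 300 bp or more, 2 were in the 39-region cluster, which held 36.1% of all regions there. At Prkch 6 of the 8 were in the 64-region cluster, which held 86.5% of all regions, so both counts were near what the cluster sizes give. The narrowest width, 94 bp, occurred in 2 regions at Prkch and 4 at Inpp4b. It is also the narrowest of the whole list, where 1348 of 75363 regions have it, and is among the 12 unusually frequent widths.

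Some exact widths are far more frequent in this list than their neighbours, 12 of them in all, between 94 and 150 bp. Regions of these widths made up 13 of 74 at Prkch (17.6%) and 24 of 108 at Inpp4b (22.2%), against 14.2% over the list. In the 39-region Inpp4b cluster they made up 12 regions (30.8%, exact Clopper-Pearson 95% interval 17.0 to 47.6%), 8 of them exactly 150 bp wide. In the 64-region Prkch cluster they made up 10 (15.6%, interval 7.76 to 26.9%), 2 of them 150 bp wide. A width of exactly 150 bp was found in 20.5% of regions in that Inpp4b cluster and 3.1% in that Prkch cluster, against 5.57% over the list. The intervals treat neighbouring regions as independent, which they are not. Both clusters were picked as the largest of their gene, and the widths were picked after seeing the data, so the intervals are no test. Without these widths the largest clusters had 47 regions at Prkch and 27 at Inpp4b, and their part in the difference between the genes was not tested.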

How the data were processed

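The authors deposited 1 list of open chromatin regions for 16 ATAC-seq samples. Its start and end values are positions in base pairs, per the file headers, with no score, count or signal. Per the submitters' processing notes, the tools were HOMER 4.6, Picard 1.130, SAMtools 1.3, Bowtie2 2.2.4 and cutadapt 1.8.3 and the build was mm9, with no roles given. Not given in the sources used here: how samples were pooled, the calling threshold, any shift of cut sites. These steps decide which regions are listed. Per the labels' protocols, 10000 cells were sorted per sample and transposed for 60 min at 37 °C. Per-sample columns left unmapped numbered 0.

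Starts were raised by 1 base. Regions were assigned to a part of a gene by their centre. Clusters link gaps under 12500 bp, joint sites gaps of at most 500 bp. Densest stretches begin at region starts. A width was called frequent above 5 times the median count at widths within 8 bp, that median being at least 10. The regions named were the first, last, widest and narrowest, the longest gaps, the clusters and the densest stretches, and others were named after their values were seen. The members, lists and windows were chosen with earlier results of these data known. The regions at 14 related genes (protein kinase C family and phosphoinositide enzymes) were not analysed here, since no mm9 annotation was used. The planned tissue against spleen test was not run, as it needs values per sample. Python 3.11.15, NumPy 2.4.6, pandas 2.3.3 and SciPy 1.17.1 were used, and the cluster functions were tested on simulated data.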

Additional observations from a re-analysis of the deposited data

How the results depend on the processing

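No paired analysis was possible because regions carry no values of single samples; no replicate could be left out either. Of 58 comparisons with alternatives, 46 stayed close to the values given (counts within 1.5 times, other values within a 95% interval that treats regions as independent). The density ratio of Prkch to Inpp4b was between 1.66 and 2.17 in all 8 alternatives run on it. Keeping regions of at least the list's median width left 46 regions at Prkch and 55 at Inpp4b, and largest clusters of 27 and 16, by fewer regions. Links of 5 kb gave largest clusters of 9 at Prkch and 22 at Inpp4b, which turned the order of the genes round. Links of 25 kb gave 94 at Prkch, 20 of them beyond the window, and 58 at Inpp4b, so the Prkch cluster is then bounded by neither gene nor window. Merging within 500 bp raised the median width at Prkch to 237 bp, by construction. It likewise raised the median gaps to 4364 bp at Prkch and 4044 bp at Inpp4b. The Prkch gap was counted as close only because it equals the upper end of its interval. Leaving out the 12 frequent widths, chosen after seeing the data, gave a median width of 202.5 bp at Inpp4b. All 12 are at most 150 bp, so dropping them raises the median width by construction and joins neighbouring gaps into longer ones. It removes 22.2% of regions at Inpp4b and 17.6% at Prkch. The median gaps were then nearly equal, 3242 bp at Prkch and 3245 bp at Inpp4b. The share in the densest stretch moved with its length: 24.1% at Inpp4b for 50 kb, and 56.8% at Prkch and 36.1% at Inpp4b for 100 kb. Widening the spans by 10 kb, also chosen after seeing the data, left 60 regions at Prkch and 108 at Inpp4b. Read depth is unknown, so empty stretches lack called regions but are not known to be closed.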
